A study of Homo sapiens and Homo sapiens
Mus musculus and Mus musculus with 9 samples.

Results

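The genes described here are 10 regulators of entry into the cell cycle, chosen by symbol from the 41713 genes of the table: the CDK inhibitors CDKN1B, CDKN1C and CDKN2C, the D-type cyclins CCND1 and CCND3, their kinases CDK4 and CDK6, and the pocket proteins RB1, RBL1 and RBL2. All 10 had a row. RNA-Seq had been performed on C4-2B cells cultured alone (3 libraries) and on a mixed co-culture (3 libraries) in which C4-2B and MC3T3-E1 cells were combined at a ratio of 1 to 30, to learn which human genes differ between cancer cells alone and cancer cells mixed with osteoblasts. C4-2B cells are prostate cancer cells of human origin that respond to androgen, and MC3T3-E1 cells are a pre-osteoblast line from the mouse. The labels give both as wild type, maintained in alpha-MEM with serum, and name no drug and no time point. The 3 libraries of MC3T3-E1 cells alone hold no human cells and were not used. The first group is a cell line and the second a mixture of cell lines from both species, and nothing in the labels says whether the libraries of a group came from separate cultures.

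The values are the authors' means over the 6 libraries of both groups, 1 for each of 3 ways of keeping human reads, and each is a level and not a difference. Which of the 10 genes differed between C4-2B cells alone and the mixed co-culture is therefore not described here. What the means allow is the level of each gene, its order within its family per kilobase of RNA, and how far the level depended on the way human and mouse reads were told apart. Every order and fold between genes is one of pooled means, and may differ within either group alone.

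A cell leaves G1 for S phase when D-type cyclins activate CDK4 or CDK6 and the kinases phosphorylate the pocket proteins RB1, RBL1 (p107) and RBL2 (p130), which then release the E2F factors. INK4 inhibitors such as CDKN2C bind CDK4 and CDK6 and keep the D cyclins off, whereas CIP/KIP inhibitors such as CDKN1B (p27) and CDKN1C (p57) bind cyclin-CDK complexes, above all those of CDK2. In quiescent cells RBL2, with E2F4, is the pocket protein of the DREAM complex, which holds cell cycle genes silent. RB1 is often lost in advanced prostate cancer, and CCND1 is both a partner of CDK4 and a cofactor that can restrain the androgen receptor.

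In a mixed culture of human and mouse cells, the sequence of a read tells its species only where the species differ, so the stretches that do not differ come first. In the coding sequence of the canonical transcript (GENCODE release 44, GRCh38), the longest stretch also found in the mouse transcripts lay in the mouse orthologue for each of the 10 genes. It measured 110 bases in CDK6, 95 in CDKN2C, 56 in RBL2, 50 in CCND3 and in RBL1, 48 in RB1, 47 in CCND1, 44 in CDK4, 41 in CDKN1C and 38 in CDKN1B. The libraries were read over 50 bases from each end, so 5 of the 10 genes had a coding stretch at least as long as a read. The share of all genes with such a stretch was not counted, so the number is no trait of these genes. The other end of a fragment can lie outside the stretch. The longest of these are printed in coding direction, with every base shared by both species.
CDK6: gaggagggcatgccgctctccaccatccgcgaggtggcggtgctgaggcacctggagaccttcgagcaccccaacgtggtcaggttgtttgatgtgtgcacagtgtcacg
CDKN2C: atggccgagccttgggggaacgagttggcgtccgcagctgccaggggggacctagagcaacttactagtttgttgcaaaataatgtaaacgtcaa
RBL2: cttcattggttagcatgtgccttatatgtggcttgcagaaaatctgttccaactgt
The CDK6 stretch is on the minus strand of chromosome 7 and runs across the junction of exons 2 and 3 of the 8 exons of the transcript. That of CDKN2C opens the coding sequence, at chr1:50970369-50970463 on the plus strand. That of RBL2 is in exon 2 of 22, at chr16:53439025-53439080 on the plus strand. Cut into all words of 31 bases, the coding sequence was shared with the mouse over 20.7% of its words in CDKN2C and 12.9% in CDK6, against 1.71% in RB1 to 4.21% in CCND1 for the other 8 genes. Over all transcripts of the gene, the shares were 7.16% in CDKN2C and 1.38% in CDK6, at the 97.1st and 72.8th percentiles of protein-coding genes.

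CCND1 was also measured in the study by qRT-PCR, and its primers are shown because they meet the same question at a smaller scale. Capitals in the forward primer mark the bases that differ from mouse Ccnd1. Capitals in the stretch mark the site of the reverse primer, which was found complete in mouse Ccnd1 and in no other mouse gene.
CCND1 forward primer: cctcGgtGtcCtacttcaaAtg
CCND1 reverse primer: gcggtccaggtagttcatg
CCND1 stretch shared with mouse: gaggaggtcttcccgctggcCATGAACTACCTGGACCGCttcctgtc
The forward primer lies in exon 1 of 5 at chr11:69641432-69641453 and the reverse primer in exon 2 at chr11:69643075-69643093, and they enclose 143 bases of the transcript. Counted from the 5′ end, with the primer's base given before the position and the mouse base after it, the forward primer differed from mouse Ccnd1 by G5C, G8A, C11T and A20G. The reverse primer had 0 mismatches, and it falls inside the 47 bases at chr11:69643055-69643101 that the species share. The study states that its primers were checked for species specificity, and the sequence comparison made here is no test of amplification.

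The mean counts within the family were widely spread, with CCND1 at the top and CDKN1C at the bottom in each pipeline. To compare genes, the mean from the Xenome pipeline was divided by the length of the gene's exons in kilobases. On this scale 8 of the 10 genes were above the median of 17784 protein-coding genes, which was 96.2 normalised counts per kb, and the median of the 10 genes was 470 per kb. CDK6 and CDKN1C were below it.

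**Figure D1:**
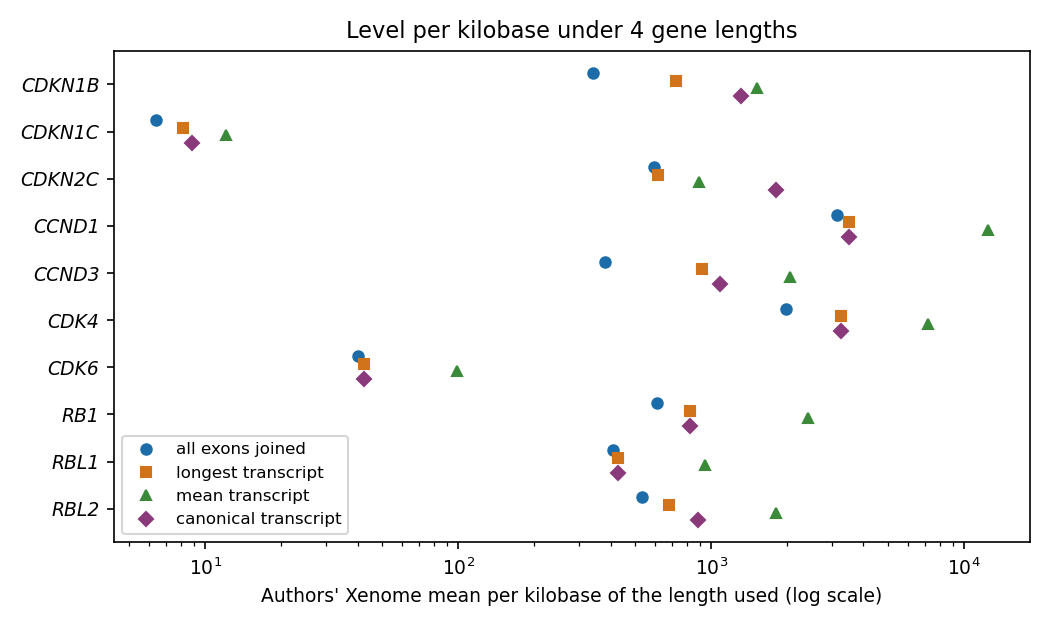
The horizontal axis gives the mean normalised count of the Xenome pipeline per kilobase on a log scale and the vertical axis the genes, with 1 symbol for each of 4 definitions of gene length and no error, since a pooled mean has none. CCND1 and CDK4 sit to the right and CDKN1C and CDK6 to the left under every length, whereas CDKN1B and CDKN2C change places.

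Among the inhibitors, CDKN1B and CDKN2C were both above the median gene and CDKN1C was far below them. CDKN1B (ENSG00000111276, chromosome 12 from 12715058 to 12722369, plus strand), which blocks cyclin E-CDK2 and accumulates in resting cells, had a mean of 3153 normalised counts in Xenome, 3149 in XenofilteR and 3159 in Kallisto. Per kb of exon this was 341, at the 70.9th percentile of protein-coding genes. CDKN2C (ENSG00000123080, chromosome 1 from 50960745 to 50974634, plus strand), which encodes the INK4 protein p18, had means of 1788, 1787 and 1788 in the same order. Its 592 per kb of exon put it at the 81.4th percentile. CDKN2C was thus the higher inhibitor when all exons were counted, with CDKN1B at 0.575 times its level, but CDKN1B was the higher with the longest transcript, and the fold ranged from 0.575 to 1.69 over the lengths. The order of these inhibitors was therefore not settled. CDKN1C (ENSG00000129757, chromosome 11 from 2883213 to 2885773, minus strand), the imprinted inhibitor p57, had a mean of 15.8 in Xenome, 15.8 in XenofilteR and 17.5 in Kallisto, and 6.36 per kb of exon, at the 30.6th percentile. CDKN2C was 93.1 times higher than CDKN1C per kb, and at least 74.2 times under every length and pipeline tried.

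The mean of CDKN1C was low enough to be taken apart into whole reads per library. The mean of a gene is a sum of its reads in 6 libraries, each read weighted by the inverse of the depth of its library. For each of the 871 low genes tried, all with lower means than CDKN1C, 1 combination of reads gave the mean. CDKN1C itself also had 1 combination, and the reads of 40 of 40 made genes were recovered. The libraries fell into 3 deep and 3 shallow ones, with size factors of 5.93, 5.31 and 4.86 against 0.427, 0.145 and 0.109. Depth here means the size factor of the human reads that Xenome kept, and not the depth of sequencing. The columns used here do not say to which group a library belongs. The split has the same numbers as the design, 3 libraries of C4-2B cells alone and 3 of the mixed co-culture. In the co-culture, human and mouse cells were combined at a ratio of 1 to 30, so fewer human reads follow from the design. The shallow libraries are therefore probably those of the co-culture. This was not tested, and the libraries are named by depth and not by group. CDKN1C had 79, 71 and 84 reads in the deep libraries and 3, 1 and 4 in the shallow ones, 242 in all. After normalisation these were 13.3, 13.4 and 17.3 counts in the deep libraries and 7.03, 6.91 and 36.7 in the shallow ones. The exact Poisson 95% interval ran from 10.5 to 16.6 in the deepest library and from 10.00 to 94.0 in the shallowest. The shallow libraries thus overlapped the deep ones, and 38.8% of the mean rested on the 4 reads of the shallowest library. These intervals cover counting error only.

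Cyclin D1 had the highest mean of the members in each pipeline and exceeded cyclin D3 several times over. CCND1 (ENSG00000110092, chromosome 11 from 69641156 to 69654474, plus strand) had means of 14903 in Xenome, 14899 in XenofilteR and 15432 in Kallisto, and 3130 per kb of exon, at the 97.7th percentile. CCND3 (ENSG00000112576, chromosome 6 from 41934933 to 42050357, minus strand), the D cyclin best known from lymphocytes and muscle, had means of 2198, 2291 and 2285 and 381 per kb, at the 73.1st percentile. CCND1 was 8.21 times higher than CCND3 per kb of exon, and 3.24 times with the canonical transcripts, the smallest fold of the lengths and pipelines tried. The lead of CCND1 over CDK4 per kb depended on the length. In Xenome it was 3130 to 1972 per kb of exon, but 3516 to 3272 with the longest transcripts. Kallisto gave a higher mean than Xenome by 1.46-fold for CDK4 and by 1.04-fold for CCND1. With the longest transcripts CDK4 is then the higher in Kallisto, so the order of CCND1 and CDK4 per kb was not settled. The third D cyclin, CCND2, is not a member and was nearly absent, with means of 10.7, 7.60 and 23.2.

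The mean of CCND2 could also be taken apart, and it was not typical of the libraries it averages. The 19 Xenome reads were 2, 2 and 5 in the deep libraries and 2, 7 and 1 in the shallow ones. Normalised, they were 0.337, 0.376 and 1.03 counts in the deep libraries and 4.69, 48.3 and 9.18 in the shallow ones. The 7 reads of a single shallow library made up 75.6% of the mean, and the interval of that library (19.4 to 99.5) lay above the intervals of the 3 deep libraries, the highest of which ended at 2.40. Of the 6 osteoblast markers low enough to be resolved, POSTN had reads only in the shallow libraries, at 2.34, 13.8 and 9.18 normalised counts. SP7 and ALPL had reads only in deep libraries, at up to 2.53 and 0.617 normalised counts. BGLAP, IBSP and SPP1 had reads in all 3 deep libraries and in 1 shallow library, where the single read was worth 6.91, 6.91 and 2.34 normalised counts against at most 6.58, 5.23 and 1.18 in a deep library. By the design, the shallow libraries are probably those of the co-culture, which held mouse RNA. Whether the CCND2 reads of the shallow libraries came from mouse RNA was not tested.

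**Figure D2:**
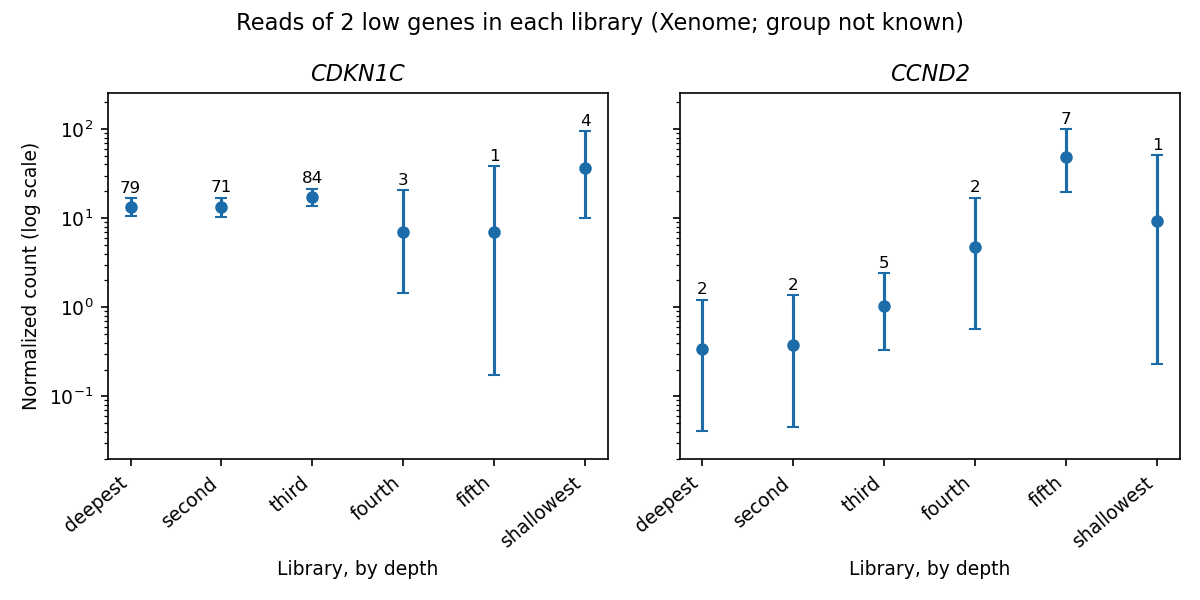
Normalised count (log scale) of CDKN1C and CCND2 in each of 6 libraries, ordered by the depth of the human reads kept. Bars are exact Poisson 95% intervals, with the number of reads above each bar. CDKN1C lay between 6.91 and 36.7 in all libraries, whereas CCND2 was at 1.03 or lower in the 3 deep libraries and at 4.69 or higher in the 3 shallow ones.

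Of the kinases, CDK4 was the far more abundant. CDK4 (ENSG00000135446, chromosome 12 from 57747727 to 57756013, minus strand) had means of 6103 in Xenome, 6423 in XenofilteR and 8916 in Kallisto, and 1972 per kb of exon, at the 95.6th percentile. CDK6 (ENSG00000105810, chromosome 7 from 92604921 to 92836594, minus strand), which shares the D cyclins and the INK4 inhibitors with CDK4, had means of 493, 493 and 509. Its RNA is long (12239 bases of exon), so per kb it reached only 40.3, at the 42.5th percentile. CDK4 was 49.0 times higher than CDK6 per kb of exon, and up to 77.4 times with the longest transcripts.

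The pocket proteins were present at like levels, with none of them missing. RB1 (ENSG00000139687, chromosome 13 from 48303726 to 48599436, plus strand), the retinoblastoma protein, had means of 3932, 3931 and 3966 and 611 per kb of exon, at the 82.0th percentile. RBL2 (ENSG00000103479, chromosome 16 from 53433977 to 53491648, plus strand) had means of 4309, 4457 and 4991 and 531 per kb, at the 79.4th percentile. RBL1 (ENSG00000080839, chromosome 20 from 36996349 to 37095997, minus strand), which in most cells is made in cycling rather than resting phases, had means of 2434, 2449 and 2617 and 409 per kb, at the 74.4th percentile. RBL1 was the lowest under every length and pipeline tried: RB1 was 1.50 times higher (1.40 to 2.54) and RBL2 1.30 times (1.30 to 2.07). RB1 and RBL2 changed order with the length, at 0.929 to 1.33 times.

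The next comparison asks how far these levels depended on how human reads were kept. Xenome sorts reads before alignment, XenofilteR compares the alignments to both genomes, and Kallisto assigns reads to a joined human and mouse transcriptome. Between XenofilteR and Xenome, all 10 genes lay within 1.1-fold of each other. The highest ratios were those of CDK4 (1.05), CCND3 (1.04) and RBL2 (1.03), at the 96.0th, 95.3rd and 94.3rd percentiles of 11574 protein-coding genes with a mean of at least 50 in all 3 pipelines, of which the middle 90% lay between 0.989 and 1.04. The other 7 genes were between 0.999 and 1.01.

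**Figure D3:**
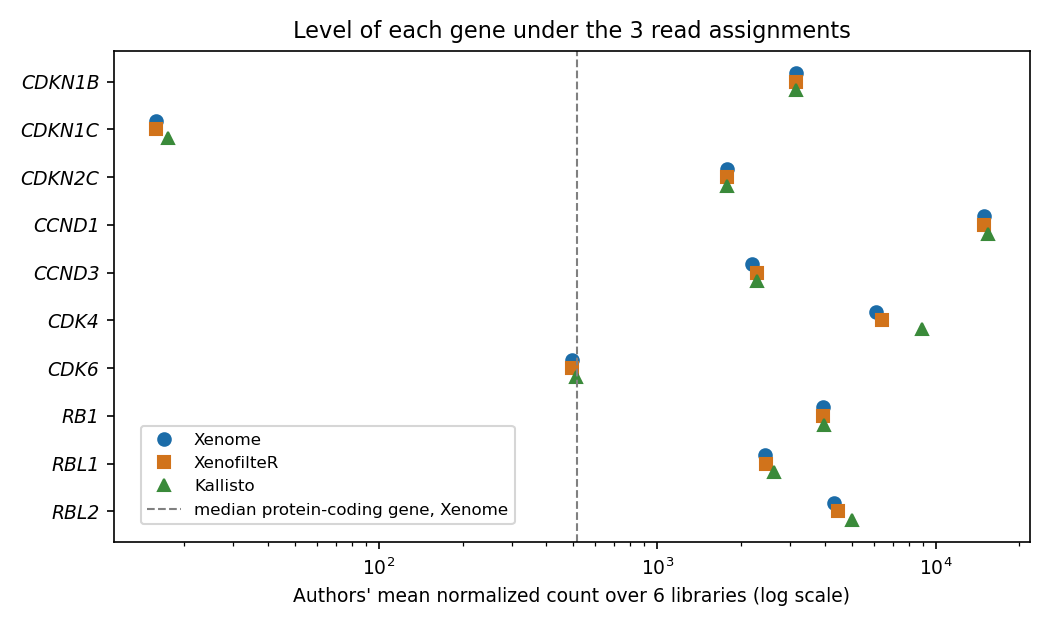
Mean normalised count (log scale) of each gene under Xenome, XenofilteR and Kallisto, with the median protein-coding gene of Xenome as a dashed line and no error, since a pooled mean has none. The symbols of a gene nearly coincide, except for CDK4, where Kallisto gave 8916 against 6103 in Xenome.

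Between Kallisto and Xenome, 7 of the 10 genes lay within 1.1-fold, with CDKN1B and CDKN2C both at 1.00. The middle 90% of the 11574 genes lay between 0.915 and 2.22. Their share within 1.1-fold was not counted, so the 7 are no trait of the family. CDK4 stood furthest out at 1.46-fold, the 89.8th percentile, followed by RBL2 at 1.16-fold (79.0th percentile), while CDKN1C, with its few reads, was at 1.11-fold. A log2 ratio of at least 0.5 above the median gene was reached by 1 of the 9 members with a mean of at least 50 (CDK4, at 0.52) and by 1210 of 11574 genes (10.5%), so the share of members was near that of all genes.

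CDK4 was also the member whose sequence was shared most with other human genes. Words were compared on either strand, so bases that a gene shares with an opposite-strand gene at its own locus count as shared, and these were not separated from bases shared with genes elsewhere. Of the words of 31 bases in its transcripts, 39.7% occurred in another human gene, against 19.7% in CDKN2C, 17.3% in RBL2, 9.36% in CCND1, 7.26% in RBL1, and 1.37% or less in CCND3, CDKN1B, CDK6, CDKN1C and RB1. TSPAN31, a tetraspanin gene on the opposite strand, covers 1369 bases, or 44.2%, of the exon bases of CDK4. A long non-coding RNA on the opposite strand (ENSG00000290102) covers 617 bases, or 20.4%, of the exon bases of CDKN2C, the next largest overlap. The exons of RBL2 overlap those of AKTIP over 7.51% of their bases and a further opposite-strand transcript over 8.89%, and those of CCND1 overlap LTO1 over 10.4%. For these 4 genes the percent of exon bases overlapped and the percent of words shared were close, and by construction the measures are not independent. They were also close in CDK6 (0.703% and 0.705%). In RBL1 they were further apart, at 3.58% of exon bases and 7.26% of words, as in CCND3, at 0.417% and 1.37%. The library kit keeps the strand, but the strand setting used in counting is not given in the sources used here. Across 11565 genes, the Kallisto to Xenome ratio was 0.996 at the median of the 1444 genes that share no word with another human gene, and 1.76 at the median of the 1051 genes that share more than 30%. Spearman's rho between the ratio and this share was 0.54 across genes, which are not independent replicates, and that with the share found in mouse transcripts was 0.08. Over the 2642 genes that share more than 10% and up to 30%, the median was 1.10, with quartiles of 1.03 and 1.26. RBL2 (1.16) fell between these quartiles and CDKN2C (1.00) below them. Of the CDKN2C words, 7.16% were also found in the mouse, at the 97.1st percentile. The part of shared sequence or of opposite-strand overlap in the CDK4 ratio was not tested.

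**Figure D4:**
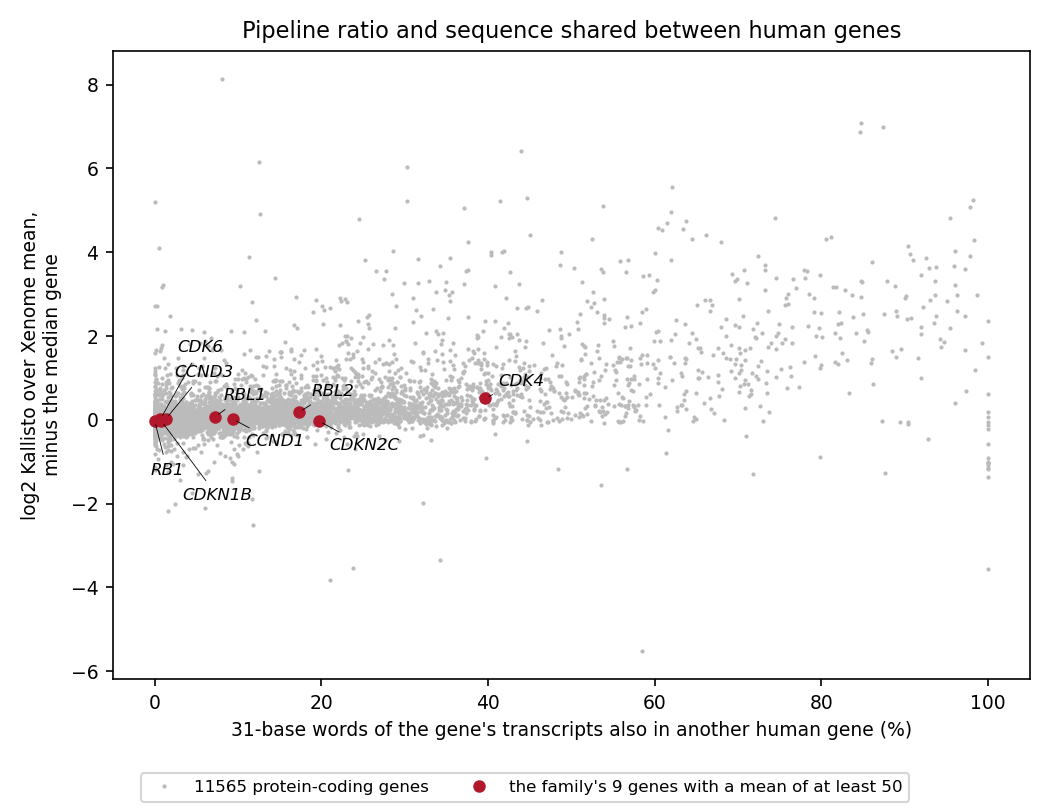
Each grey point is a protein-coding gene with a mean of at least 50 in all pipelines, the horizontal axis gives the percent of its 31-base words found in another human gene, and the vertical axis the log2 ratio of the Kallisto to the Xenome mean minus that of the median gene. Members are in red: CDK4, at 39.7% and 0.52, is the furthest to the right and the highest of the 9, and CDKN2C, at 19.7%, is at -0.03.

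Most partners of these genes were also above the median gene. Of 33 other genes of the G1 to S pathway, all were in the table, 31 had a Xenome mean of at least 50 and 28 were above the median protein-coding gene per kb, with a median of 356 per kb. Of the remaining inhibitors, CDKN1A (p21), the p53-responsive CIP/KIP member, had a mean of 4678 and 1561 per kb, above CDKN1B and CDKN2C under each of the 4 lengths. The INK4 genes of chromosome 9 were low, CDKN2A at 62.0 and CDKN2B at 32.3 normalised counts, and CDKN2D was at 455. CDK2, the kinase that CDKN1B blocks, had a mean of 4514, and its cyclins CCNE1 and CCNE2 had means of 903 and 1606. E2F1, an activator released by RB1, had a mean of 4019 and 1494 per kb, and E2F4, the partner of RBL2, a mean of 2100 and 584 per kb. MKI67, the proliferation antigen, had the highest mean of the list at 19966. Between Kallisto and Xenome, a log2 ratio of at least 0.5 above the median gene was reached by 3 of the 31 genes with a mean of at least 50 (CCNE2, CKS1B and LIN37), again near the 10.5% of all genes. CCNE2, at 1.50-fold, shared 36.0% of its words with other human genes, CKS1B, also at 1.50-fold, shared 18.7%, and LIN37, at 2.18-fold, shared 51.8%.

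The cell type markers bear on all of these means, since mouse RNA was present in the mixed co-culture. Of 10 C4-2B markers, 9 were analysed, with Xenome means from 4603 (TMPRSS2) to 51038 (KLK3). Of 10 osteoblast markers under their human symbols, 7 had a Xenome mean under 50, down to 0.103 for ALPL, and the highest was COL1A1 at 3384 in Xenome, 4557 in XenofilteR and 2471 in Kallisto. RUNX2 had a Xenome mean of 411. SPARC was at 72.0 in Xenome and at 142 in XenofilteR and in Kallisto, and COL1A2 at 45.0 in Xenome but 264 in XenofilteR and 222 in Kallisto. The remaining 6 markers, SP7, ALPL, BGLAP, IBSP, SPP1 and POSTN, were at 4.22 or lower in Xenome and at 8.47 or lower in the other pipelines. The part of mouse reads in the means of the 10 genes was not tested.

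The libraries differed widely in the depth of human reads kept, and so in the number of reads behind these levels. The spread between libraries was not measured for members other than CDKN1C. A gene at its mean corresponds to 344 reads in the shallowest library and 18696 in the deepest for CDKN1B, to 1624 and 88374 for CCND1, to 53.7 and 2923 for CDK6, and to 1.72 and 93.5 for CDKN1C. The mean weighs the 6 libraries alike although the size factor of human reads was 54.4 times higher in the deepest than in the shallowest. Sequencing depth was not measured here, and the study states a minimum for every library.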

How the data were processed

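RNA-Seq libraries of C4-2B cells alone (n = 3) and of the mixed co-culture (n = 3) were grouped from their labels. Per the study's methods, the authors selected human reads by Xenome, or by XenofilteR after alignment to GRCh38 and GRCm38, aligned with HISAT2 and counted with featureCounts, or quantified with Kallisto on joined transcriptomes. Tool versions are not given in the sources used here. The authors deposited, for each of 3 pipelines, a mean over both groups of counts divided by DESeq2 size factors, which is the value used. The 15 other columns, which were not used, hold the authors' fold changes, standard errors, Wald statistics and p-values. The table has 41734 rows, of which 21 repeat a gene.

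The planned edgeR test needs counts per library and was not run. Gene lengths and transcripts came from GENCODE release 44 (GRCh38). The main length was the union of exons. Ratios between pipelines are log2 ratios minus the median over protein-coding genes with a mean of at least 50. Distinct words of 31 bases on either strand were compared with all other human transcripts and the mouse transcripts. Reads per library were solved from Xenome means up to 20, a limit chosen after seeing the data, with a relative tolerance of 2e-13, and the ratio, word and read steps were tested on simulated data. Computation used numba 0.67.0, pandas 2.3.3 and scipy 1.17.1 under Python 3.11.15.

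The members and lists were chosen with earlier results of these data known. The genes named are the 10 members, of the pathway list their direct partners and MKI67, and of other lists the highest and lowest gene. CKS1B, LIN37 and the remaining osteoblast markers were named in addition, after their values were seen.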

Additional observations from a re-analysis of the deposited data

How the results depend on the processing

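The levels are pooled means, so tests, the DESeq2 alternative, other normalisations and fits without a replicate were not run. No paired analysis was possible because the deposited columns used here hold no values of single libraries by group. Ratios of levels per kb (log2) depended on gene length. With the longest transcript, CCND1 over CCND3 went from 3.04 to 1.94, CDK4 over CDK6 from 5.61 to 6.27 and CDKN1B over CDKN2C from -0.80 to 0.24. With the mean transcript, CDKN1B over CDKN2C was 0.76 and RB1 over RBL1 went from 0.58 to 1.34. With the canonical transcript, chosen after seeing the data, CCND1 over CCND3 was 1.70, CDK4 over CDK6 6.27, CDKN2C over CDKN1C 7.66 (from 6.54), RBL2 over RBL1 1.05 (from 0.38) and RB1 over RBL2 -0.11 (from 0.20). Kallisto in place of Xenome moved none of these 7 ratios by over 1.5-fold. The count of members above the median gene was 8, and 10 among all genes of the table, where low non-coding genes enter. Percentiles of single genes moved by over 5 points in 20 of 50 alternatives, all of which changed the genes or the scale they were ranked on. None of the 40 alternatives for the pipeline ratios of members moved one by over 1.5-fold.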
